A study of Arabidopsis thaliana with 9 samples.

Results

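The alpha-expansin (EXPA) genes of Arabidopsis thaliana were followed in the seedlings of a rice transgene study. The members are the genes whose array probe set names exactly 1 gene with a symbol that starts with EXPA and a digit, and they number 10 of the 13350 genes that are named in this way. The 3 groups, with 3 arrays each, were a transgenic line that expresses the rice gene OsSAP11 (line 22), a transgenic line that expresses the rice gene OsRLCK253 (line 25), and untransformed wild type. The study's title calls OsSAP11 a stress-associated protein of the A20/AN1 zinc-finger kind, and names the receptor-like cytoplasmic kinase OsRLCK253 as its partner in protein interaction. All plants carried the ecotype label col 1, were 21 days old and untreated, and had been grown on MS medium without antibiotic. Each transgene was represented by a single line, so an effect of the transgene and an effect of that line cannot be told apart. The promoter of the transgenes, and whether plants were pooled for an array, are not stated in the labels, and the expression of the rice genes was not analysed here.

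Alpha-expansins are secreted proteins that loosen the plant cell wall. They act where cellulose meets xyloglucan, work best in an acidified wall, and let the wall extend under turgor without cutting its polymers. In Arabidopsis they form a large gene family whose members are active in different organs and growing cell types, and EXPA7 and EXPA18 are known as genes of root hair cells.

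The arrays were of like brightness, with a median signal of 42.9 to 46.2 per array, and signal is the brightness of a probe set on a linear scale in the authors' processed values. Between 39.8% and 40.3% of the probe sets of an array lay under a signal of 16, which is used below as the limit for a dim probe set. The 18 spike-in probe sets for the hybridisation were all lower in both lines than in wild type, with a median log2 change of -0.26 in the OsSAP11 line and of -0.17 in the OsRLCK253 line. Marker genes were set beside the seedling label. A listed gene counts as measured where a probe set names it alone, whatever its signal. By this count 4 of 12 leaf markers and 1 of 12 root markers were measured. None of 9 flower and seed markers had such a probe set, so their expression could not be checked. The summed signal of the leaf markers was 71752 to 78253 in the OsSAP11 line, 75153 to 77800 in the OsRLCK253 line and 55977 to 61182 in wild type, so neither line overlapped with wild type. Of these 4 leaf markers, 3 rose in each line. The largest change was that of LHCB4.2, an antenna protein of photosystem II, by 0.74 on the log2 scale in the OsSAP11 line and by 0.78 in the OsRLCK253 line. RCA rose by 0.36 and 0.48 and PRK by 0.24 and 0.24 in the same 2 lines. The remaining marker, LHCB4.1, changed by 0.11 and 0.10 and did not pass the test described below.

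Changes are given below as log2(signal + 16) of the line minus that of wild type, with the standard error of a limma fit to all 9 arrays, and a gene is said to rise or fall where its p-value, adjusted over all 22746 probe sets tested, was under 0.05. The pseudocount of 16 makes the change of a dim gene look smaller. The 2 lines were compared with the same wild-type arrays, so the 2 comparisons are not independent of each other.

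Against wild type, 1 of the 10 members rose in the OsSAP11 line and 4 rose in the OsRLCK253 line, and none fell in either. Over all probe sets, 7.44% rose and 5.17% fell in the OsSAP11 line (12.6% together), while 6.95% rose and 6.85% fell in the OsRLCK253 line (13.8% together). EXPA8 rose in both lines, and EXPA4, EXPA7 and EXPA15 rose in the OsRLCK253 line. The median change of the 10 members was 0.078 in the OsSAP11 line, against -0.0021 over all probe sets. In the OsRLCK253 line it was 0.60, against 0.014 over all probe sets. In the OsSAP11 line 5 of 10 members lay above 0, as did 42.1% of all probe sets. In the OsRLCK253 line 9 of 10 did, as did 65.8% of all probe sets; under quantile normalization the dim EXPA20 and EXPA21 lay under 0 in the OsRLCK253 line.

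EXPA8 (AT2G40610) was bright in every seedling sample and differed most firmly. Its signals were 1032, 1204 and 1076 on the OsSAP11 arrays, 1218, 1269 and 1414 on the OsRLCK253 arrays, and 735, 714 and 789 on the wild-type arrays. Every OsRLCK253 array lay above every OsSAP11 array, and every OsSAP11 array lay above every wild-type array. The means were 1104 ± 89.6, 1300.4 ± 102 and 746 ± 38.6 in the same 3 groups (SD, n = 3 each). EXPA8 rose by 0.55 ± 0.078 in the OsSAP11 line (1.47-fold, adjusted p = 0.00613), with a 95% interval of 0.37 to 0.74. It rose by 0.79 ± 0.078 in the OsRLCK253 line (1.73-fold, adjusted p = 0.00134), with a 95% interval of 0.60 to 0.97. Both calls held in all 16 alternative settings, with changes of 0.49 to 0.60 in the OsSAP11 line and 0.73 to 0.83 in the OsRLCK253 line. In whole seedlings, a change in the number of cells of a type and a change in RNA per cell cannot be told apart. This holds for every gene below. The summed leaf markers were also higher in both lines, and their part in the change of EXPA8 was not tested. Pearson's r of EXPA8 with that sum was 0.94 over the 9 arrays and 0.33 for the deviations from the group means.

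**Figure D1:**
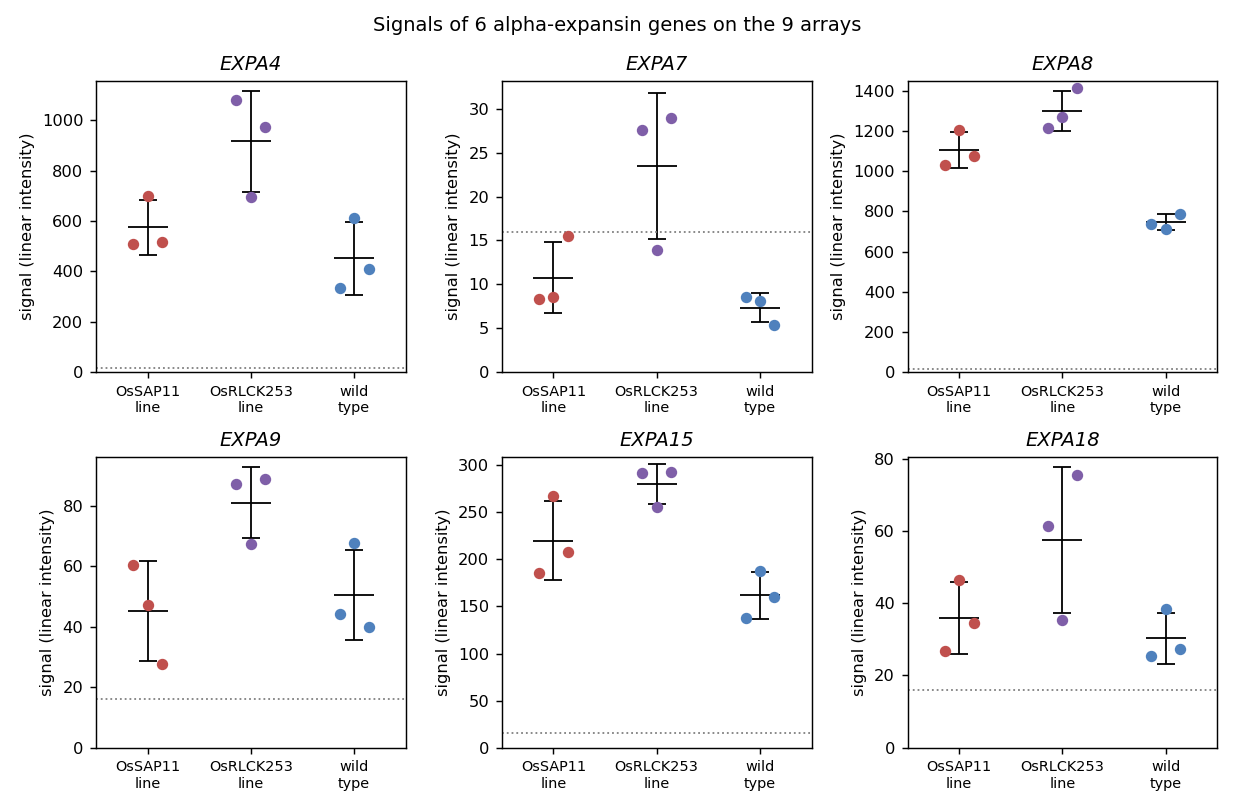
Signal of the 6 members that reached 16 on at least 1 array (linear axes, one panel per gene), with 1 point per array, coloured by group (OsSAP11 line, OsRLCK253 line, wild type), and a bar for the mean ± SD (n = 3). The dotted line marks a signal of 16. EXPA8 separates all 3 groups, while in the other panels the wild-type points reach into those of the OsSAP11 line.

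EXPA4 (AT2G39700) had signals of 507, 699 and 518 on the OsSAP11 arrays, 1082, 694 and 972 on the OsRLCK253 arrays, and 334, 612 and 409 on the wild-type arrays. Each OsRLCK253 array exceeded each wild-type array, whereas the OsSAP11 and wild-type arrays overlapped. EXPA4 rose by 1.02 ± 0.26 in the OsRLCK253 line (2.02-fold, adjusted p = 0.0497), with a 95% interval of 0.38 to 1.65. In the OsSAP11 line its change was 0.37 ± 0.26 (adjusted p = 0.511), with an interval from -0.26 to 0.996 that holds both no change and a rise to nearly 2-fold. The call in the OsRLCK253 line sits at the threshold and held in 6 of 16 alternatives. It was kept without OsRLCK253 replicate 2 or WT replicate 2, and lost without each of the other 7 arrays, with changes of 0.83 to 1.25 throughout and an adjusted p of up to 0.141 without WT replicate 1.

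EXPA15 (AT2G03090) showed a like order at a lower signal. It had signals of 186, 267 and 207 on the OsSAP11 arrays, 291, 255 and 292 on the OsRLCK253 arrays, and 138, 188 and 160.1 on the wild-type arrays. The OsRLCK253 arrays lay above all wild-type arrays, and the OsSAP11 arrays overlapped with both. EXPA15 rose by 0.74 ± 0.15 in the OsRLCK253 line (1.67-fold, adjusted p = 0.0208), with a 95% interval that starts at 0.38. The change in the OsSAP11 line was 0.40 ± 0.15 (adjusted p = 0.151), with an interval of 0.044 to 0.76. The OsRLCK253 call held in 12 of 16 alternatives and was lost without OsRLCK253 replicate 1 (adjusted p = 0.0537) or 3 (0.0638) and without WT replicate 1 (0.0665) or 3 (0.0618).

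The root hair gene EXPA7 (AT1G12560) was dim. Its signals were 8.30, 8.54 and 15.5 on the OsSAP11 arrays, 27.6, 13.9 and 29.0 on the OsRLCK253 arrays, and 8.50, 8.11 and 5.41 on the wild-type arrays. It reached 16 on 2 of the 9 arrays, both of the OsRLCK253 line. EXPA7 rose by 0.74 ± 0.18 in the OsRLCK253 line (1.67-fold on the scale with the pseudocount, adjusted p = 0.0389), with a 95% interval of 0.31 to 1.17. The size depends on the pseudocount, with 1.51 at a pseudocount of 1 and 0.49 at 32. The call held in 6 of 15 alternatives: leaving out 1 array at a time kept it without OsSAP11 replicate 3 or OsRLCK253 replicate 2 and lost it without each of the other 7 arrays, with an adjusted p of up to 0.113 without WT replicate 3. In the OsSAP11 line the change was 0.19 ± 0.18 (adjusted p = 0.664).

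EXPA18 (AT1G62980), the other root hair gene, did not pass the test in either line. It had signals of 26.7, 46.5 and 34.6 on the OsSAP11 arrays, 61.4, 35.5 and 75.5 on the OsRLCK253 arrays, and 25.3, 38.4 and 27.2 on the wild-type arrays. A single OsRLCK253 array, replicate 2, fell within the range of wild type. The change was 0.64 ± 0.24 in the OsRLCK253 line (adjusted p = 0.146) and 0.16 ± 0.24 in the OsSAP11 line (adjusted p = 0.881). Without OsRLCK253 replicate 2 the change in that line was 0.87 and passed (adjusted p = 0.0469). It also passed where dim probe sets were filtered out (adjusted p = 0.0402). EXPA18 was the one measured gene of a list of 18 root hair genes, so the lists hold no other root hair gene to set beside it and EXPA7.

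EXPA9 (AT5G02260) had signals of 60.5, 47.4 and 27.8 on the OsSAP11 arrays, 87.2, 67.4 and 88.8 on the OsRLCK253 arrays, and 44.2, 67.6 and 39.8 on the wild-type arrays. The OsRLCK253 arrays lay above all OsSAP11 arrays, and 1 of them lay just under the highest wild-type array. EXPA9 did not pass against wild type, with 0.56 ± 0.24 in the OsRLCK253 line (adjusted p = 0.181) and -0.13 ± 0.24 in the OsSAP11 line (adjusted p = 0.923). Its sign in the OsSAP11 line turned without OsSAP11 replicate 3 (0.089) or WT replicate 2 (0.042).

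The remaining 4 members stayed under 16 on all 9 arrays, and no level can be read from them. EXPA16 (AT3G55500) ranged from 5.54 to 6.04 in the OsSAP11 line, 5.71 to 6.10 in the OsRLCK253 line and 5.95 to 6.76 in wild type. EXPA20 (AT4G38210) ranged from 4.46 to 4.84 in the OsSAP11 line, 4.77 to 7.89 in the OsRLCK253 line and 4.70 to 7.40 in wild type. EXPA21 (AT5G39260) and EXPA24 (AT5G39310) stayed between 4.11 and 4.94 on all arrays. None of these 4 passed against wild type, and their changes lay between -0.064 and 0.021 in the 2 lines. The groups of EXPA21 and EXPA24 did not overlap between the OsRLCK253 line and wild type, although the means differed by only 0.0066 and 0.015 on the log2 scale. Counting the dim EXPA21 and EXPA24, the OsRLCK253 arrays lay above the wild-type arrays for 6 of 10 members in all. This is read against 34% of all probe sets. The OsSAP11 arrays lay above the wild-type arrays for 1 of 10 members, against 17.8% of all probe sets. With an unadjusted p under 0.05, there were 2 members in the OsSAP11 line, where all probe sets gave 25.3%, and 5 in the OsRLCK253 line, where they gave 29.0%.

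**Figure D2:**
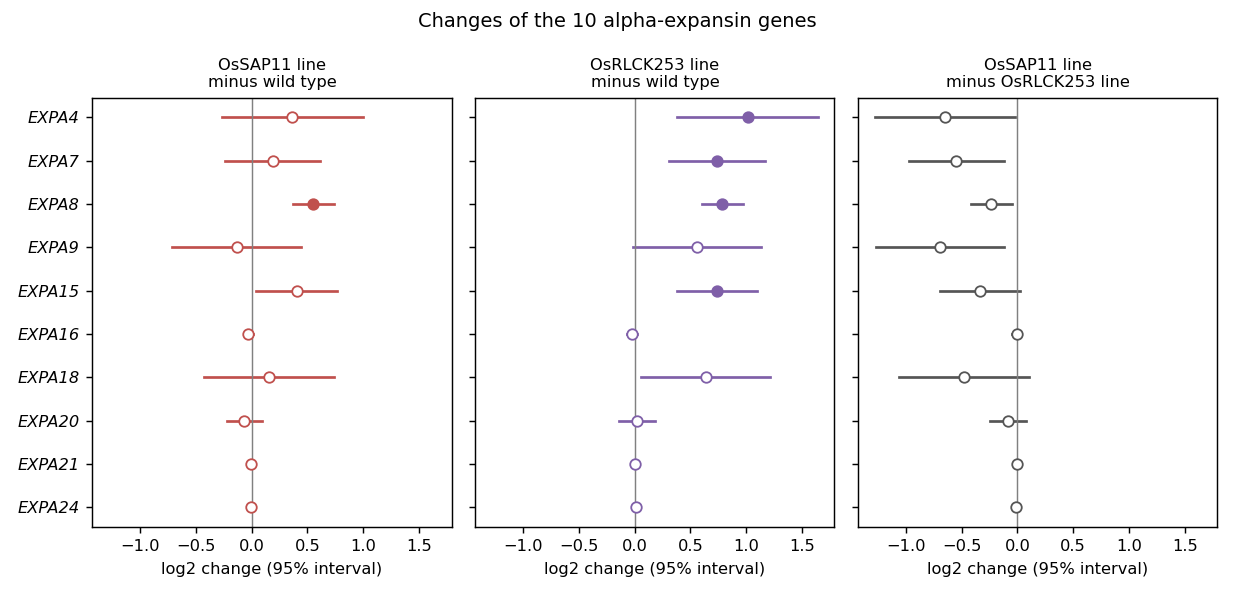
Change in log2(signal + 16) of the 10 members, with 95% intervals from the limma fit, in 3 comparisons: OsSAP11 line over wild type, OsRLCK253 line over wild type, and OsSAP11 line over OsRLCK253 line. Filled points have an adjusted p under 0.05: EXPA8 in the OsSAP11 line, and EXPA4, EXPA7, EXPA8 and EXPA15 in the OsRLCK253 line.

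A further 15 genes of the family are not among the members. The reference gene table lists 25 alpha-expansin genes, among them 1 named EXP26. Of these, 4 share 2 probe sets that name several genes, and 11 are named by no probe set of the array annotation used. The probe set shared by EXP26 and EXPA22 had signals of 5.05 to 5.73, and that shared by EXPA25 and EXPA23 had signals of 5.74 to 6.67. EXPA21, EXPA22, EXPA23, EXP26, EXPA25 and EXPA24 follow one another as neighbouring genes, and all those measured there, alone or shared, were under 16 on every array.

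Between the lines, the OsSAP11 line gave a lower mean than the OsRLCK253 line for all 10 members (the signs of the dim EXPA16 and EXPA21 turned under quantile normalization), and none of the differences passed the test. Of all probe sets, 5.21% passed in this comparison, with 1.87% of all probe sets lower and 3.34% of all probe sets higher in the OsSAP11 line. Over all probe sets, 38.6% were above 0 in this comparison, so most had the lower mean in the OsSAP11 line. The median difference of the members, OsSAP11 line minus OsRLCK253 line, was -0.29, against -0.012 over all probe sets. EXPA8 differed by -0.23 ± 0.078 (adjusted p = 0.132), EXPA4 by -0.65 ± 0.26 (adjusted p = 0.181) and EXPA15 by -0.34 ± 0.15 (adjusted p = 0.206). The 95% interval of EXPA4 ran from -1.28 to -0.019, so the data allow a large difference between the lines or nearly none. EXPA7 differed by -0.55 ± 0.18 (adjusted p = 0.129), EXPA9 by -0.69 ± 0.24 (adjusted p = 0.141) and EXPA18 by -0.48 ± 0.24 (adjusted p = 0.251). With an unadjusted p under 0.05 there were 4 members, where all probe sets gave 26.4%. The OsSAP11 arrays lay below the OsRLCK253 arrays for EXPA8, EXPA9 and the dim EXPA21 and EXPA24. This is 4 of 10 members, where 37.5% of all probe sets did so. A rise in the OsRLCK253 line that did not pass in the OsSAP11 line is therefore not shown to differ between the lines. The difference for EXPA7 passed without OsRLCK253 replicate 2 (-0.74, adjusted p = 0.0391), and that for EXPA9 passed where dim probe sets were filtered out (adjusted p = 0.0439).

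Set out by group means, EXPA4, EXPA7, EXPA8, EXPA15 and EXPA18 stood highest in the OsRLCK253 line, next in the OsSAP11 line and lowest in wild type. In this order only EXPA8 has neighbours that are separated on every array, and its OsSAP11 and OsRLCK253 means did not differ past the threshold. EXPA9 was highest in the OsRLCK253 line and lowest in the OsSAP11 line, with wild type between them.

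Within the groups, EXPA4, EXPA15 and EXPA18 tended to be high on the same arrays, and the other members did so less clearly or not at all. Over the 15 pairs of these 6 members, Pearson's r of the deviations from the group means had a median of 0.36 and a lowest value of -0.17 (9 arrays). These pairs include the dim EXPA7, which reached 16 on only 2 arrays, both of the OsRLCK253 line. EXPA15 and EXPA18 ranked the 3 arrays of every group in the same way, with replicate 2 highest and 1 lowest in the OsSAP11 line and in wild type, and replicate 3 highest and 2 lowest in the OsRLCK253 line. EXPA4 gave that order in the OsSAP11 line and wild type, and had replicate 1 highest and 2 lowest in the OsRLCK253 line. PYK10, a beta-glucosidase that is abundant in roots and the one root marker measured, ranked the arrays exactly as EXPA15 and EXPA18 did. The summed leaf markers ranked them exactly as EXPA4 did. PYK10 and this sum thus gave the same order in the OsSAP11 line and in wild type. Both were lowest on OsRLCK253 replicate 2. How many of all probe sets gave these orders was not counted. EXPA8 followed another order in the OsRLCK253 line and in wild type. EXPA7 and EXPA9 differed from these orders in the OsSAP11 line and in wild type, where EXPA7 had replicate 3 and replicate 1 highest and EXPA9 had replicate 1 and replicate 2 highest. By the size of the deviations, EXPA15 followed the leaf marker sum (r = 0.98) more closely than PYK10 (r = 0.85), EXPA4 followed both alike (0.93 and 0.91), and EXPA18 had 0.80 with the leaf marker sum and 0.98 with PYK10. These values compare genes read on the same 9 arrays, with 3 arrays a group.

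**Figure D3:**
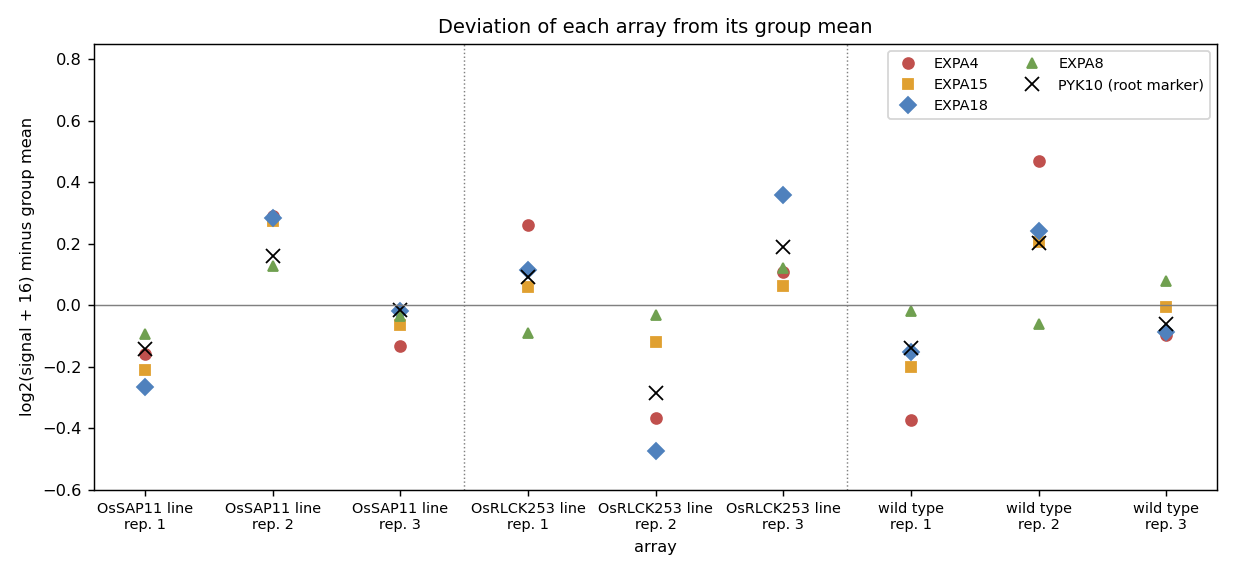
Difference of each array from the mean of its group in log2(signal + 16), for EXPA4, EXPA15, EXPA18, EXPA8 and the root marker PYK10, over the 3 arrays of each group, OsSAP11 line first, then OsRLCK253 line, then wild type. EXPA4 and EXPA18 lie high in OsSAP11 replicate 2 (0.29 and 0.28) and WT replicate 2 (0.47 and 0.24) and low in OsRLCK253 replicate 2 (-0.37 and -0.47), where PYK10 deviates the same way.

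PYK10 had signals of 6297, 7777 and 6879 on the OsSAP11 arrays, 8446, 6499 and 9038 on the OsRLCK253 arrays, and 6119, 7772 and 6460.0 on the wild-type arrays. The groups overlapped, and the change was 0.044 in the OsSAP11 line (adjusted p = 0.965) and 0.23 in the OsRLCK253 line (adjusted p = 0.34). The part of root or leaf content in the values of EXPA4, EXPA15 and EXPA18 was not tested. Of 7 guard cell markers, 3 were measured, with summed signals of 84.6 to 101 in the OsSAP11 line, 81.7 to 97.0 in the OsRLCK253 line and 73.0 to 85.6 in wild type, and none of them passed in either line.

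The genes whose pattern over the 9 arrays was most like that of a member were ranked by Pearson's r of log2(signal + 16) among up to 5892 candidate genes. These values describe 9 arrays that also differ by group. For EXPA8 the nearest were AT1G66330 (r = 0.988), AT5G59770 (0.985), AT5G13770 (0.983), AT1G52510 (0.975) and AT1G55960 (0.974). For EXPA4 they were GUT1 (0.963), the beta-expansin EXPB3 (0.958), AT3G25290 (0.957), AT3G07570 (0.956) and AT3G22540 (0.952). EXPA4 was itself the fifth nearest to EXPA15 (0.951), after AT3G57020 (0.960), AT4G24780 (0.958), AT1G73630 (0.953) and AT5G55860 (0.952). The genes nearest to the root hair genes EXPA7 and EXPA18 were not the same. For EXPA18 they were AT4G26010 (0.967), UGT72E2 (0.966), AT2G23540 (0.962), PYK10 (0.958) and AT5G38030 (0.942). For EXPA7 they were AT5G58300 (0.946), AT2G39210 (0.923), AT5G47310 (0.921), AT1G69450 (0.917) and AT3G22060 (0.916). For EXPA9 they were SAH7 (0.962), AT1G80690 (0.948), AT2G46140 (0.914), AT1G51650 (0.913) and AT4G17670 (0.913). The neighbours of the 4 dim members, with r of 0.868 to 0.976, are not named because those members carry no readable level.

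Of the relatives of the alpha-expansins, the beta-expansins (EXPB) and the expansin-like families A and B (EXLA, EXLB), 8 of 10 listed genes were measured. Against wild type, 1 rose and 1 fell in the OsSAP11 line, where 7.44% of all probe sets rose and 5.17% fell. In the OsRLCK253 line 2 rose and 1 fell, where 6.95% of all probe sets rose and 6.85% fell. Beta-expansins share the wall-loosening fold and include the pollen allergens of grasses, while no wall-loosening activity has been established for the expansin-like proteins. EXLA1 fell in both lines and EXLB1 rose in both.

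EXLA1 had signals of 43.3, 50.5 and 68.9 on the OsSAP11 arrays, 40.0, 37.2 and 45.0 on the OsRLCK253 arrays, and 302, 279 and 153 on the wild-type arrays. It fell by 1.85 ± 0.26 on the log2 scale in the OsSAP11 line (adjusted p = 0.00575) and fell by 2.15 ± 0.26 in the OsRLCK253 line (adjusted p = 0.00269). All arrays of both lines lay under all wild-type arrays. EXLB1 moved the other way, with signals of 672, 525 and 469 on the OsSAP11 arrays, 822, 922 and 722 on the OsRLCK253 arrays, and 235, 232 and 189 on the wild-type arrays. It rose by 1.27 ± 0.16 in the OsSAP11 line (adjusted p = 0.00396) and by 1.84 ± 0.16 in the OsRLCK253 line (adjusted p = 0.00079). No array of either line overlapped with wild type.

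EXPB3 had signals of 502, 670 and 397 on the OsSAP11 arrays, 956, 723 and 950 on the OsRLCK253 arrays, and 314, 452 and 310 on the wild-type arrays. It rose by 1.26 ± 0.23 in the OsRLCK253 line (adjusted p = 0.0142, and 0.0547 without WT replicate 1), and its change in the OsSAP11 line was 0.51 ± 0.23 (adjusted p = 0.231). As with EXPA4, the OsSAP11 arrays overlapped with wild type and the OsRLCK253 arrays did not. EXPB1 was at 59.9, 76.6 and 31.6 on the OsSAP11 arrays, 38.9, 77.4 and 111 on the OsRLCK253 arrays, and 16.9, 22.6 and 24.4 on the wild-type arrays. Both lines lay above wild type on every array, but neither change passed, with 0.90 ± 0.36 in the OsSAP11 line (adjusted p = 0.172) and 1.22 ± 0.36 in the OsRLCK253 line (adjusted p = 0.0711). EXPB1 passed in 1 of 16 alternatives in the OsSAP11 line, the filter on dim probe sets (adjusted p = 0.0397), and in 4 of 16 in the OsRLCK253 line, among them the same filter (0.00892) and the fit without OsRLCK253 replicate 1 (1.55, adjusted p = 0.0263). EXLA2 averaged 9.92 in the OsSAP11 line, 10.2 in the OsRLCK253 line and 15.9 in wild type and did not pass, except without WT replicate 2 (adjusted p = 0.0423 and 0.0452 in the same 2 lines), and EXPB2, EXPB5 and EXLA3 were under 16 on all arrays and did not pass either. None of the 8 genes passed between the 2 lines.

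**Figure D4:**
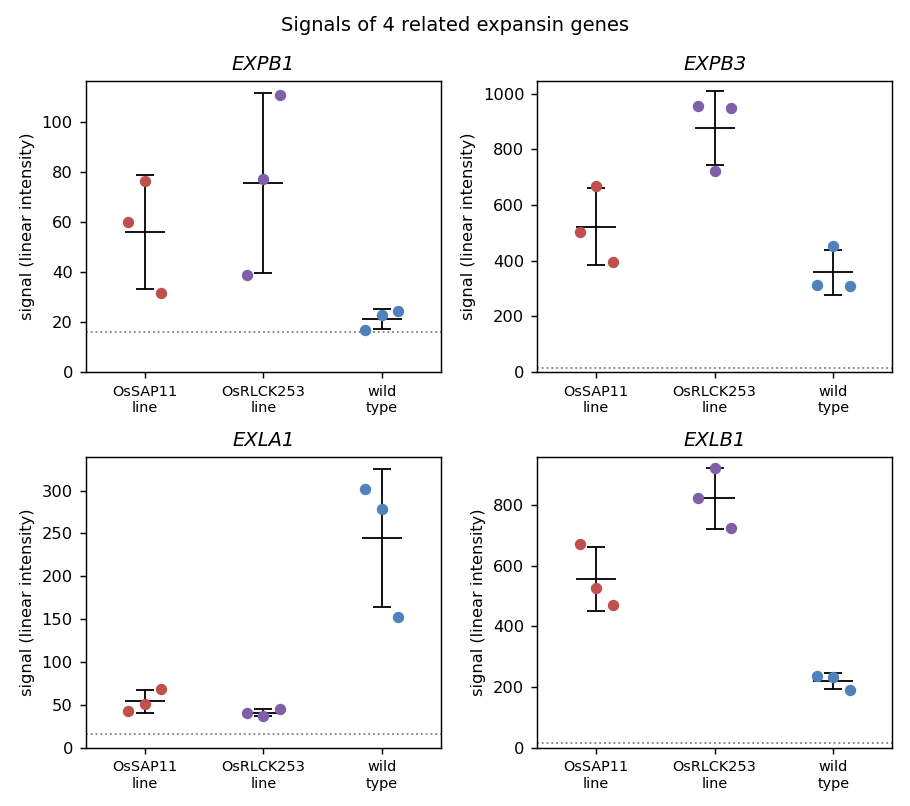
Signal of the beta-expansins EXPB1 and EXPB3 and of the expansin-like genes EXLA1 and EXLB1 (linear axes, one panel per gene), with 1 point per array, coloured by group (OsSAP11 line, OsRLCK253 line, wild type), and a bar for the mean ± SD (n = 3). EXLA1 lies below wild type and EXLB1 above it on every array of both lines.

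Other genes that act on the growing wall were scarce among the named probe sets. Of 33 genes for xyloglucan endotransglucosylase/hydrolases (XTH), enzymes that cut and rejoin xyloglucan, 10 were measured, 1 of them rose in each line and none fell. That gene was XTH32, with signals of 697, 636 and 566 on the OsSAP11 arrays, 574, 605 and 439 on the OsRLCK253 arrays, and 236, 304 and 253 on the wild-type arrays. It rose by 1.21 ± 0.15 in the OsSAP11 line (adjusted p = 0.00383) and by 0.98 ± 0.15 in the OsRLCK253 line (adjusted p = 0.00674). Here the OsSAP11 line had the higher mean, unlike for the alpha-expansins, and the 2 lines did not differ past the threshold (0.23, adjusted p = 0.33).

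Of 12 pectin genes listed, 2 were measured, and AT1G48100 rose in the OsRLCK253 line by 0.94 ± 0.11 (adjusted p = 0.00251), against a change of 0.29 in the OsSAP11 line (adjusted p = 0.158). The difference between the lines, OsSAP11 line minus OsRLCK253 line, was -0.65 ± 0.11 and passed (adjusted p = 0.0243), and it passed in 11 of 16 alternatives. Among the 5 that lost it were the fits without OsSAP11 replicate 2 (0.0721), OsRLCK253 replicate 1 (0.0508) or OsRLCK253 replicate 3 (0.0659), and that of only the 2 groups compared (0.0624). None of 11 plasma membrane proton pumps, which acidify the wall, was measured. The one measured gene of 8 for xyloglucan synthesis and trimming and the one of 13 for cellulose synthesis did not pass in either line. Of 25 growth regulator genes, 3 were measured, of which 2 rose in the OsSAP11 line and 2 fell in the OsRLCK253 line. GID1A, a gibberellin receptor, fell by 0.55 in the OsRLCK253 line (adjusted p = 0.0140, held in 14 of 16 alternatives, and 0.0509 without WT replicate 1), and its change in the OsSAP11 line was -0.10 (adjusted p = 0.674). HAT2, an auxin-induced homeobox gene, was higher in the OsSAP11 line than in the OsRLCK253 line by 0.72 (adjusted p = 0.0104), and this held in all 16 alternatives. Its changes against wild type, 0.37 in the OsSAP11 line (adjusted p = 0.0396) and -0.35 in the OsRLCK253 line (adjusted p = 0.0450), held in only 3 and 4 of the 16. IAA29, an auxin-response repressor, was under 16 on all arrays, with 0.20 in the OsSAP11 line (adjusted p = 0.0337) and -0.017 in the OsRLCK253 line. Its call in the OsSAP11 line held in 6 of 15 alternatives and in 1 of the 9 that left out an array, with an adjusted p of up to 0.105 without WT replicate 1.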

How the data were processed

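Total RNA of seedlings (21 days) was labelled with biotin as cRNA and measured on 9 Affymetrix arrays, 3 in each of 3 groups that the labels name, with replicates labelled as biological. The deposited values are intensities on a linear scale, 1 per probe set and array. GCOS is named per the submitters' processing notes, and the summarisation and scaling method is not given in the sources used here.

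Of 22810 probe sets, 64 controls were left out and 22746 tested. Genes were named from the platform annotation of GEO, with symbols updated through a RefSeq gene table of assembly TAIR10.1, which was used for names and neighbours only. Each member has 1 probe set. Values were transformed as log2(signal + 16), and limma 3.58.1 (R 4.3.3) fitted a mean for each group to the 9 arrays together; p-values were two-sided, adjusted by Benjamini-Hochberg over all probe sets, and called at 0.05. The fit was tested on simulated data.

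The rule set for scaling was to use the deposited values where array medians of the log2 signal differed by under 0.1. They differed by 0.106 on log2(signal) and by 0.0777 on log2(signal + 16), the scale of the fit, and the values were used as deposited. This reading was chosen with both outcomes known, and quantile normalization changed no call among the members.

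The alternatives were quantile normalization, other pseudocounts, a filter that kept probe sets at or above 16 on at least 3 arrays, a fit of only the groups compared, a trended and robust prior, a replicate block, and each array left out in turn. The members and gene lists were chosen with earlier results of these data known. Named genes were all members, all related expansins, up to 4 called genes per other list, the uncalled leaf marker LHCB4.1, and the 5 genes most like each member. The number of arrays limits the precision, since intensities carry no counting depth.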

Additional observations from a re-analysis of the deposited data

How the results depend on the processing

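EXPA8 kept its call in both lines under all 16 alternatives, and quantile normalization changed no call among the 10 members. The OsRLCK253 changes of EXPA4 and EXPA7 rest on the choice of arrays and fit. EXPA4 was no longer past the threshold with a pseudocount of 32 (0.99, adjusted p = 0.0525), with only the 2 groups compared (1.02, adjusted p = 0.113) and with a replicate block (1.02, adjusted p = 0.106), and ranged from 0.83 to 1.25 with 1 array left out. EXPA7 was lost with only the 2 groups compared (0.74, adjusted p = 0.0828) and with a replicate block (0.74, adjusted p = 0.0691), and ranged from 0.63 to 0.93 with 1 array left out; the cause was not tested. Between the lines EXPA7 ranged from -0.74 to -0.44 and passed once, without OsRLCK253 replicate 2. EXPA24, under 16 on all arrays, passed in the OsRLCK253 line with the trended prior (adjusted p = 0.0334). The members called in the OsRLCK253 line numbered 4, against 2 with only the 2 groups compared, 2 with a replicate block and 1 to 5 with 1 array left out (1 without OsRLCK253 replicate 1 or 3 or WT replicate 1 or 3, and 2 without OsSAP11 replicate 1 or 2). Between the lines they numbered 0, against 1 with the filter (EXPA9), 1 with the trended prior (EXPA24) and 0 to 1 with 1 array left out.

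The probe sets called over the whole array numbered 2869 in the OsSAP11 line (1827 to 2875 with 1 array left out), 3138 in the OsRLCK253 line (2040 to 3387) and 1185 between the lines (449 to 1388). Between the lines there were 1982 with the filter, 609 with only the 2 groups compared, 1809 with the trended prior and 639 with a replicate block. Deviations of same-numbered arrays had correlations of -0.127 to 0.181, and 5 of 9 arrays correlated best with their own number. Deviations from a group mean cancel out within each small group, and no chance level was computed for these values. Whether the replicate numbers pair the arrays was therefore not decided. With the replicate block, among others HAT2 in both lines against wild type, GID1A in the OsRLCK253 line (-0.55, adjusted p = 0.0520) and AT1G48100 between the lines (-0.65, adjusted p = 0.0512) were no longer past the threshold.

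Signs turned only for changes that were not called. EXPA9 in the OsSAP11 line turned to 0.089 and 0.042 without OsSAP11 replicate 3 or WT replicate 2, in a range of -0.31 to 0.089, and PYK10 there to -0.036 and -0.026, in a range of -0.036 to 0.15. The other turned signs belong to genes under or near 16: EXPA24 in the OsSAP11 line (0.0021 with quantile normalization, and -0.0033 to 0.00065 with 1 array left out), EXPA20 (-0.0016 with quantile normalization, and -0.043 to 0.079) and EXPA21 (-0.00096 with quantile normalization) in the OsRLCK253 line, and EXPA16 (0.021 with quantile normalization, and -0.014 to 0.0026), EXPA21 (0.00089 with quantile normalization) and EXLA2 (0.043 with quantile normalization, and -0.055 to 0.045) between the lines. The filter left 13861 probe sets and 5 members, so EXPA7 has no value there, and no other probe set of a member could be tried because each has 1.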
